A study of Sus scrofa with 12 samples.

Results

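Gene names that stand on both DNA strands of the same stretch of the pig genome were examined in ovarian RNA. The deposited table lists assembled loci, each with a strand, a position on Sscrofa11.1, a gene name, a raw count and an FPKM value (fragments scaled to locus length and library size) per library. A name was taken when it was the only name of a locus on the + strand and of an overlapping locus on the - strand, each with a mean FPKM of at least 0.5 over the 12 libraries. This held for 1679 names on 4348 of the 29150 loci, which is 14.2% of the 11854 names measured at that level. For each name the locus with the highest mean FPKM on each strand was paired, giving 3358 loci. Of the names, 1087 had a single overlapping pair of loci and 592 had several. In 7 names, RBM47 among them, the paired loci each overlapped another locus of the name but not each other. The names just inside the level threshold were KIFC3 and MARCH5, whose weaker strands had 0.507 and 0.511 FPKM, and those just outside were PTTG1IP and HK2, both with 0.496 FPKM.

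The study compared left ovaries of 6 ES gilts with those of 6 NES gilts, which were full sisters from the same litters, bred pure from New French Yorkshire sows. ES gilts had 2 consecutive estrus cycles and were killed in the third estrus, whereas no estrus was recorded in NES gilts, with detection starting at 165 days of age. The age at which each gilt was killed is not given in the sources used here. Whole ovaries were extracted, so follicles, stroma and any luteal tissue are pooled in each library, and no gilt received a treatment named in the labels. Each library is a separate gilt, and the labels do not say which ES number belongs to which NES sister. Libraries held 58140547 to 68961955 counts. Summed FPKM of macrophage markers was 419 in ES3 and 11.2 to 26.6 in the NES libraries. Epithelial markers summed to 63.3 in ES6 against 0.770 to 3.73 in NES. Theca markers summed to 0.799 in ES3 and 20.3 in ES4, against 87.4 to 158 in NES. Luteal markers summed to 31.8 to 361 in the ES libraries and 16.2 to 33.2 in NES. Oocyte markers were present in every library, at 5.17 to 13.7 summed FPKM.

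An RNA copied from the strand opposite a gene is called a natural antisense transcript. Such transcripts start near the promoter, inside the gene or past its end, and some are known to dampen or to accompany the expression of the gene they face. In libraries made by the dUTP method the second cDNA strand is marked and destroyed, so a read keeps the strand it came from, with a small leak from the other strand. The libraries were of this kind, but the strand setting used in counting is not given in the sources used here. Without it, reads of a gene and of the RNA facing it cannot be told apart in these values.

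One strand of nearly every pair carried the known gene. In 1595 pairs exactly 1 of the paired loci held an Ensembl transcript (the Ensembl strand), on + in 778 and on - in 817. In 84 pairs neither did, and in no pair did both. Among 1847 overlapping opposite-strand pairs of loci with different names, 1595 (86.4%) had an Ensembl transcript on both strands. A shared name mostly stands for 1 gene on 1 strand, so this contrast follows largely from how the classes were formed. The Ensembl locus was protein coding in 1578 pairs. The opposite locus was mostly a single assembled transcript (1216 pairs, 76.2%), against a median of 5 transcripts for the Ensembl locus.

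Opposite loci were short and lay inside the gene. Their median span was 11992 bases against 97341 for the Ensembl loci, and the overlap had a median of 10316 bases. The opposite locus lay wholly inside the Ensembl locus in 1314 pairs (82.4%). It ran past only the 5′ end in 187 pairs (11.7%) and past only the 3′ end in 80 (5.02%), and it covered the whole gene in 14. Of the loci inside, 483 had their midpoint in the first part when the gene was cut into 3 equal parts from its 5′ end, 530 in the middle and 301 in the last. The median midpoint was 43.3% of the way along the gene. Pairs lay on all 20 chromosomes, with 154 on chromosome 1 and 32 on X.

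Dividing count by FPKM gives the length the authors' values imply for each locus, which is near the span for a locus with no introns. The scale was set on loci without a strand, taken as equal to their span, so the centre of their own values is built in. The 3015 of these with a mean FPKM of at least 0.5 had an implied length of 99.8 to 103% of their span (1st to 99th percentile). The implied length of opposite loci was 57.1% of the span in the median (interquartile range 17.7 to 94.8%), and that of Ensembl loci 17.5% (8.71 to 31.9%). The implied length was 90% of the span or more in 488 opposite loci (30.6%) and under 10% in 287 (18.0%). In 2 opposite loci it exceeded the span by more than 5%, up to 232% of it. The loci at 90% or more had a median level of 1.97 FPKM and those under 10% a median of 1.69 FPKM.

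A few opposite loci coincided with a second gene. RefSeq genes of the same build, whose strand was not given, overlapped 65 of the 1595 opposite loci by at least 50% of both lengths under another name. In 50 (3.13% of all) the RefSeq gene did not match the Ensembl locus in the same way. Of these 50 genes 12 were protein coding and 34 were long noncoding RNAs, and 44 had only a LOC identifier. The clearest case was COL4A2, which encodes a chain of basement membrane collagen. Its opposite locus (chr11:76858239-76997546, - strand) overlapped COL4A1, the gene of the partner chain, by 99.8% of both lengths, and it touched the COL4A2 locus (chr11:76997126-77165624, + strand) over only 421 bases. The highest opposite level of all was therefore carried by a locus with the coordinates of COL4A1. Median r between the strands, the correlation used below, was 0.41 in the 50 pairs and 0.64 in the others.

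The Ensembl strand was usually the higher one, but seldom by much. Its median level was 3.59 FPKM (interquartile range 2.50 to 5.69) against 1.88 FPKM (1.49 to 2.53) on the opposite strand, and it was higher in 1386 of 1595 pairs (86.9%). The fold between them had a median of 1.86 (interquartile range 1.27 to 3.06) and lay within 2-fold either way in 824 pairs (51.7%). The opposite strand was more than 10 times lower in 56 pairs (3.51%) and more than 2 times higher in 38 (2.38%). In 1230 pairs (77.1%) the opposite level was between 1 and 3 FPKM. Over pairs the levels of the strands had a Spearman rho of 0.33, a description in which all values share libraries and depth. The level was part of the choice of loci, so none of these values was tested. Because the loci differ in length, the median count per library was 4681 on the Ensembl strand and 539 on the opposite strand.

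**Figure D1:**
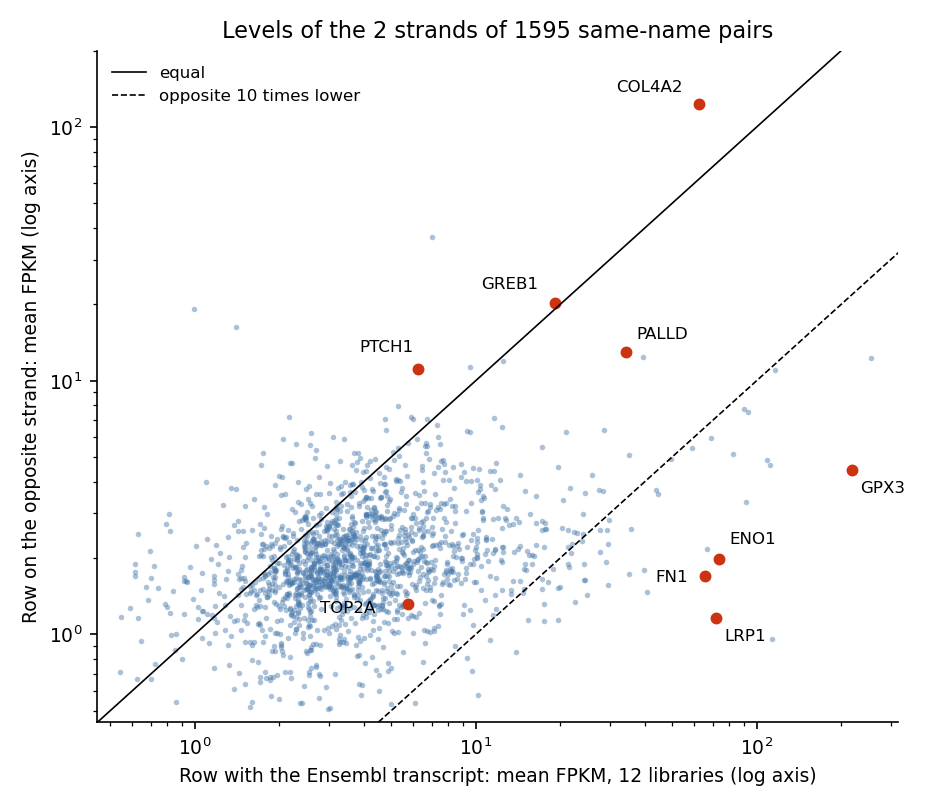
Mean FPKM over 12 libraries of the Ensembl strand (horizontal, log axis) and the opposite strand (vertical, log axis) in 1595 same-name pairs, one point per name. Most opposite loci lie between 1 and 3 FPKM over a wide range of gene levels, COL4A2 and PTCH1 lie above the line of equal levels, and LRP1, ENO1, FN1 and GPX3 lie below the line of a 10-fold difference.

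The most uneven pair was ENSSSCG00000022506, with 114 FPKM on its own strand and 0.958 opposite. Among pairs with at least 1 FPKM on each strand, a very uneven pair must have an abundant stronger strand, so the genes named next are high by that choice. LRP1, an endocytic receptor, had 71.6 FPKM on its own strand and 1.16 FPKM opposite, 1.60% of the sum. ENO1, a glycolytic enzyme, had 73.7 and 1.99 FPKM, and GPX3, an extracellular glutathione peroxidase, 218 and 4.43 FPKM. FN1, which encodes fibronectin, had 65.8 and 1.71 FPKM. The weaker strand held 1.60 to 2.63% of the summed FPKM in these 4 genes, against a median of 34.2% over all 1679 pairs. At the other end SUSD6 (2.53 FPKM on each strand), USP6NL, AFF2 and ENSSSCG00000033217 had nearly equal strands. Among the loci with the highest weaker strand, GREB1, an estrogen-responsive gene, had 19.2 FPKM on its own strand and 20.2 FPKM opposite.

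The opposite locus of GREB1 lay inside the gene (chr3:125147957-125151871, + strand), with an implied length of 99.2% of its span. Its level was 3.43, 20.3 and 32.4 FPKM (lowest, median, highest) in ES and 16.5, 17.9 and 30.7 in NES. The Ensembl strand had 2.48, 18.2 and 29.5 FPKM in ES and 15.3, 17.8 and 32.2 in NES. Both strands were lowest in ES3, and the groups overlapped. In PALLD, which encodes an actin-associated protein, the opposite strand had 13.0 FPKM against 34.2, and in RARRES1, a retinoid-induced gene, 12.3 against 255. GSTA4, a glutathione transferase, had 12.4 FPKM opposite and 39.4 on its own strand. ENSSSCG00000040769 on X had 11.9 and 12.6 FPKM.

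The gene strand was exceeded most by names that stand for small RNAs or lack a symbol. ENSSSCG00000036379 had 19.2 FPKM opposite and 0.995 on its own strand over identical coordinates. RF01684 and RF00004 are family names of small RNAs, whose reads may fall on near-identical copies, so their values are uncertain. RF01684 had 16.3 FPKM opposite and 1.40 on its own strand. Its opposite locus overlapped the RefSeq long noncoding RNA gene LOC102163816 by 75.4% of both lengths. By the same measure that gene matched the Ensembl locus of RF01684 by only 0.131%. The measure is low whenever 1 of the lengths is far shorter, so it does not show that the gene lies apart from that locus. In RF00004 the opposite locus ranged from 1.74 to 228 FPKM in ES and from 0 to 39.9 in NES. Of named genes, CA5B, a mitochondrial carbonic anhydrase, had 2.98 FPKM opposite and 0.809 on its own strand, and GAB2, a signaling adaptor, 3.98 against 1.09.

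Over the 12 libraries the strands of a name mostly moved together. Pearson r of log2(CPM + 0.5), with CPM the counts scaled to library size, had a median of 0.64 over the 1679 pairs (interquartile range 0.33 to 0.84). It was 0.9 or more in 255 pairs (15.2%) and below 0 in 187. The median was 0.73 within the 6 ES libraries and 0.46 within the 6 NES libraries. With each group centred on its mean it was 0.62, and it fell to 0.57 without ES3 and ES6, the libraries high in macrophage and epithelial markers. By a permutation test of r, two-sided and adjusted over the 6035 opposite-strand pairs of the table, 752 pairs (44.8%) were below 0.05, against 34.0% of all 6035. Of the 747 with positive r, 123 fell below 0.5 without the 2 libraries farthest from the median of the + strand. In 97 pairs r was 0.9 or more in each group.

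Pairs with different names were less alike over the same libraries. Their r had a median of 0.31 (interquartile range -0.01 to 0.60), 0.38 within ES and 0.24 within NES, and 332 of 1847 (18.0%) passed the permutation test. Of those, 61 (3.30%) had r of 0.9 or more. Pairs with an unnamed or joined locus had a median r of 0.44. Within the same-name pairs, the median r was 0.72 where the implied length of the opposite locus was 90% of its span or more, 0.63 between 50 and 90%, 0.58 under 50% and 0.49 under 10%. It was 0.65 for opposite loci inside the gene, 0.57 for those past its 5′ end and 0.47 for those past its 3′ end. The different classes of pair share libraries and depth, and the differences between these medians were not tested.

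**Figure D2:**
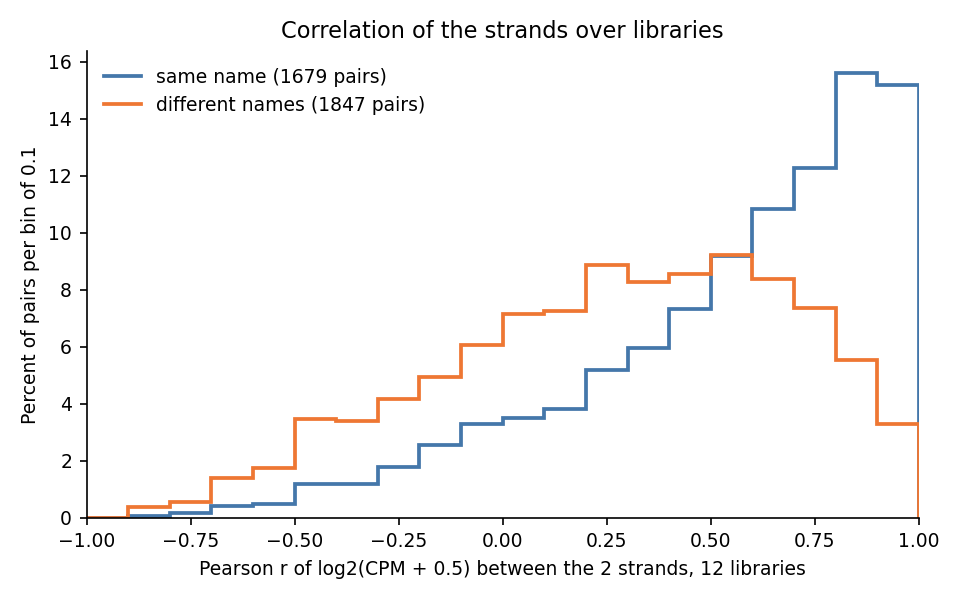
Distribution of Pearson r between the strands over 12 libraries, in percent of pairs per bin of 0.1, for 1679 same-name pairs and 1847 pairs of overlapping loci with different names. The same-name distribution peaks above 0.8 and has a median of 0.64, whereas the other has a median of 0.31.

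The highest r belonged to ST6GALNAC5, CHSY3, BCAR3 and RGS7. ST6GALNAC5, a sialyltransferase gene, had r of 1.00 (rho 0.99, permutation p = 1e-05, the smallest that 100000 resamples can give, adjusted p = 0.000236). Its Ensembl strand had 0.0938, 1.98 and 4.15 FPKM in ES and 1.88, 3.10 and 6.79 in NES, and the opposite strand 0.114, 1.82 and 3.94 in ES and 1.95, 3.04 and 5.66 in NES. ES3 was lowest on both strands, and r without ES3 and ES6 was 0.99. In CHSY3, which encodes a chondroitin synthase, an opposite locus with an implied length of 99.8% of its span (chr2:132603208-132776124, - strand) had r of 0.99 with the gene. Its r was 1.00 within ES and 0.99 within NES. The strands of BCAR3 and RGS7, both signaling genes, had r of 0.99 as well.

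In 5 pairs the strands moved against each other with an adjusted permutation p below 0.05: DENND5B, SF3B1, TXNL1, CFDP1 and KIAA0355, of which SF3B1, CFDP1 and KIAA0355 were chosen after their values were seen. These were 0.298% of the same-name pairs, against 0.812% of all 6035 pairs and 18 of the 1847 pairs with different names. DENND5B, which encodes an activator of Rab proteins, had r of -0.87 (rho -0.84, permutation p = 0.00054, adjusted p = 0.00369). The value was -0.96 within ES and -0.96 within NES, and -0.79 without ES4 and ES6, the farthest libraries. The Ensembl strand (chr5:42642896-42870973, +) had 0.790, 1.42 and 2.07 FPKM in ES and 1.10, 1.24 and 1.83 in NES. The opposite strand (chr5:42647301-42687165) had 0.492, 0.707 and 1.49 FPKM in ES and 0.658, 1.48 and 2.20 in NES, and its implied length was 99.8% of its span. ES6 was highest on one strand and lowest on the other, among ES libraries ES1 and ES5 had more opposite than Ensembl FPKM, and the groups overlapped on both strands.

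The other negative pairs had weaker r over all libraries. Without the 2 farthest libraries, r stayed similar in SF3B1 and KIAA0355 but not in TXNL1 and CFDP1. SF3B1, a splicing factor gene in which neither locus had an Ensembl transcript, had r of -0.73 (rho -0.66, permutation p = 0.00925, adjusted p = 0.0312), with -0.71 within ES, -0.93 within NES and -0.64 without its 2 farthest libraries. KIAA0355 had r of -0.66 (rho -0.67, permutation p = 0.0155, adjusted p = 0.0466), with -0.63 within ES, -0.87 within NES and -0.68 without its 2 farthest libraries. TXNL1, a thioredoxin-like gene, had r of -0.72 but -0.36 without ES1 and NES3 (rho -0.33, permutation p = 0.0110, adjusted p = 0.0359). In CFDP1 r was 0.72 within ES and -0.95 within NES, and it turned from -0.69 over all libraries to 0.48 without the 2 farthest (rho -0.23, permutation p = 0.0156, adjusted p = 0.0468).

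A correlation could also rest on 1 library. FN1 had r of 0.94 (rho 0.45, permutation p = 0.00593, adjusted p = 0.0220), and 0.03 without ES3 and ES6. Its r was 0.99 within ES and -0.18 within NES. In ES3 its Ensembl strand had 593 FPKM and the opposite strand 15.1, against highest values of 42.0 and 0.903 FPKM in the other libraries. ES3 is the library with 419 summed FPKM of macrophage markers, and the part of those cells in the FN1 value was not tested.

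Some opposite loci were silent in single libraries. Of the 1324 opposite loci with a median of at least 100 counts, 8 had 3 counts or fewer in 1 or 2 libraries, and all 8 were at 0 there, while none of 1581 Ensembl loci did. NCOA2, which encodes a nuclear receptor coactivator, had 0 counts on its opposite locus in ES6 and 1807 to 3790 in the other 11 libraries, and its Ensembl strand in ES6 had 2.32 FPKM, within the range of the others (1.58 to 2.87). The opposite locus of NFAT5, an osmotic stress factor, was at 0 in ES1 and at 1328 to 8169 counts elsewhere. That of FBXL17, an F-box gene, was at 0 in NES3 and NES4 and at 389 to 1429 counts elsewhere. The others were ANTXR1 (0 in NES6), CEP192 (ES4), ENSSSCG00000011147 (ES3), LRRK1 (NES1) and TOM1L2 (NES5), named after their values were seen. Apart from FBXL17 and its 2 libraries, each involved a different library. The silent locus of ENSSSCG00000011147 overlapped the RefSeq gene AKR1C1 by at least 58.3% of both lengths, against 11.2% for its Ensembl locus. In 2 names the Ensembl strand was also lowest in the silent library. It had 1.11 FPKM in ES3 against 3.58 to 33.3 elsewhere in ENSSSCG00000011147. In NFAT5 it had 4.58 FPKM in ES1 against 5.24 to 7.58 elsewhere. In the remaining names it lay within the range of the other libraries. The source of these zeros was not tested.

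Of the 3358 paired loci, 21 were called between ES and NES (edgeR adjusted p below 0.05). This was a lower share than the 193 of all 20421 loci tested (0.945%), of which 162 were lower in ES. Of the 16 names with a called paired locus, 9 were lower in ES, among them TOP2A of the cell cycle list and PTCH1 of the hedgehog list. The other 7 were higher on the called strand. TOP2A, the topoisomerase that untangles replicated DNA, was lower on both strands. Its Ensembl strand (chr12:22001436-22031112, +) had 1.10, 1.82 and 3.30 FPKM in ES and 3.45, 8.24 and 18.5 in NES. The opposite strand (chr12:21997891-22016533) had 0.214, 0.457 and 0.561 FPKM in ES and 0.797, 2.05 and 3.34 in NES. All 6 ES libraries were below all 6 NES libraries on both strands. The ES minus NES difference was -2.15 ± 0.38 (log2, SE) on the Ensembl strand and -2.23 ± 0.34 on the opposite strand (edgeR adjusted p = 0.0371 and 0.0337). In whole ovaries, fewer cells of a type and less RNA per cell cannot be told apart.

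Over all 4348 loci of the shared names, 27 (0.621%) were called by edgeR at an adjusted p below 0.05, against 0.945% of the 20421 loci tested. Of the 27, 12 were higher in ES (0.152% of all loci tested were) and 15 lower (0.793%). They belonged to 18 names, 12 were Ensembl loci and 15 were not, and their adjusted p-values lay between 0.0337 and 0.0493. At an unadjusted p below 0.05 there were 629 (14.5%), against 16.3% of all loci. Thus the share of calls, with both directions pooled, was not above that of the whole table. Split by direction, it was above for loci higher in ES (12 of 4348 against 31 of 20421). It was below for loci lower in ES (15 of 4348 against 162 of 20421). These shares were not tested against each other. All 6 ES libraries were below all NES libraries in 68 of the 4348 loci (1.56%, against 1.72% of all loci) and above them in 15 (0.345%, against 0.264%). No member locus was called by edgeR without ES3 and ES6 (637 at an unadjusted p below 0.05), with the replicate number as a term (536), or without any one of ES2, ES4, ES6 and NES1 to NES5 (491 to 691). DESeq2 called 174 member loci on all libraries. The called loci of names chosen by rule were called in between 4 of 18 alternatives (Ensembl strand of ZGRF1) and 10 of 19 (opposite strands of TOP2A and ZGRF1). Among the paired loci, 21 of 16 names were called, and 5 names were called on both strands: TOP2A, ZGRF1, KIFC1, ERN1 and ENSSSCG00000037176.

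Both strands were called in 3 other names that were lower in ES. ZGRF1, a DNA repair helicase gene, had 0.266, 0.298 and 0.387 FPKM on its Ensembl strand in ES and 0.377, 0.976 and 1.77 in NES. Its opposite strand was the higher one by FPKM, with 0.348, 0.664 and 0.779 FPKM in ES and 1.17, 2.64 and 3.16 in NES. By counts it was the lower one, with 41 to 406 per library against 214 to 1481 on the Ensembl strand. The differences were -1.63 ± 0.29 and -1.95 ± 0.28 (edgeR adjusted p = 0.0371 and 0.0337), and the groups were apart on the opposite strand only. KIFC1, a kinesin that focuses spindle poles, fell by 1.58 ± 0.32 on its Ensembl strand and by 1.58 ± 0.28 on the opposite strand (edgeR adjusted p = 0.0406 and 0.0371). ENSSSCG00000037176, which has no Ensembl transcript on either locus, fell by 1.77 ± 0.35 on + and by 1.88 ± 0.36 on - (edgeR adjusted p = 0.0392 and 0.0390).

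In other names 1 strand was called and its partner lay close by. TMPO, which encodes a nuclear lamina protein, had a difference of -0.93 ± 0.17 on its Ensembl strand (edgeR adjusted p = 0.0387) and -0.81 ± 0.18 opposite (adjusted p = 0.0564). NUCKS1, which encodes a nuclear DNA-binding protein, fell by 0.66 ± 0.13 on the + strand (edgeR adjusted p = 0.0390), against -0.65 ± 0.16 on - (adjusted p = 0.0695). GINS2, a subunit of the replicative helicase, and ENSSSCG00000028117, which the name table gives as the centrosomal gene CDK5RAP2, were called on the Ensembl strand alone. For GINS2 the values were -0.83 ± 0.18 and -1.12 ± 0.40 (edgeR adjusted p = 0.0490 and 0.203), and for ENSSSCG00000028117 they were -0.56 ± 0.11 and -0.45 ± 0.14 (0.0413 and 0.140). Both, and the names ERN1, COBLL1, FRMD6, RBM47 and ENSSSCG00000039658 below, were named after their values were seen.

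PTCH1, the receptor that hedgehog ligands bind, had more FPKM but far fewer counts on the opposite strand. Counts per library were 63 to 183 in ES and 203 to 606 in NES on the opposite locus. On the Ensembl strand they were 3649 to 15011 in ES and 18484 to 43713 in NES. Its Ensembl strand (chr10:26626659-26703515, +) had 1.05, 2.24 and 4.64 FPKM in ES and 5.69, 9.93 and 13.8 in NES. The opposite locus (chr10:26661960-26663952), with an implied length of 275 bases, had 2.78, 4.46 and 8.75 FPKM in ES and 8.84, 14.6 and 30.1 in NES. The groups were apart on both strands. The differences were -1.86 ± 0.34 on the Ensembl strand and -1.65 ± 0.37 opposite (edgeR adjusted p = 0.0387 and 0.0564), so the strand with more FPKM missed the threshold, as in TMPO (mean 7.92 FPKM opposite and 5.31 on its Ensembl strand). The ratio of Ensembl to opposite strand differed by -0.55 (95% interval -0.91 to -0.18, limma adjusted p = 0.231, exact permutation p = 0.00649). This is more than the gap between the edgeR differences. The ratio is taken after adding 0.5 CPM to each strand, which weighs on the few opposite counts. SMO, the signal transducer that PTCH1 restrains, had -0.30 ± 0.09 on its own strand and -0.46 ± 0.15 opposite (edgeR adjusted p = 0.125 and 0.172), with the groups apart on its own strand.

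The names higher in ES were more varied. ERN1, a sensor of unfolded proteins, had 2.98, 3.44 and 4.18 FPKM on its Ensembl strand in ES and 2.09, 2.53 and 3.03 in NES, and 1.81, 2.16 and 2.33 opposite in ES against 1.20, 1.35 and 1.78 in NES. Both strands rose, by 0.53 ± 0.11 and 0.66 ± 0.13 (edgeR adjusted p = 0.0403 and 0.0391). FRMD6, a regulator of the Hippo pathway, rose by 1.08 ± 0.23 on its Ensembl strand (edgeR adjusted p = 0.0487) against 1.06 ± 0.28 opposite (0.0945), and ES4 was highest on both. COBLL1 rose by 1.02 ± 0.22 on its Ensembl strand (0.0487), against 0.94 ± 0.21 opposite (0.0547). In RBM47, an RNA-binding protein gene whose paired loci do not overlap, the + locus rose by 2.34 ± 0.45 (edgeR adjusted p = 0.0390) against 1.95 ± 0.42 on - (0.0507), and ES4 was highest on both.

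Of the names that lack a symbol, 2 were higher in ES. ENSSSCG00000039658, whose Ensembl locus overlaps RefSeq FAM107B by 99.3% of both lengths, rose by 0.57 ± 0.12 on its opposite strand (edgeR adjusted p = 0.0479), against 0.59 ± 0.14 on its Ensembl strand (0.0654). ENSSSCG00000008898, whose Ensembl locus overlaps RefSeq HOPX by 99.98% of both lengths, rose by 0.90 ± 0.17 on its Ensembl strand (edgeR adjusted p = 0.0390), against 0.77 ± 0.33 opposite (0.266).

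**Figure D3:**
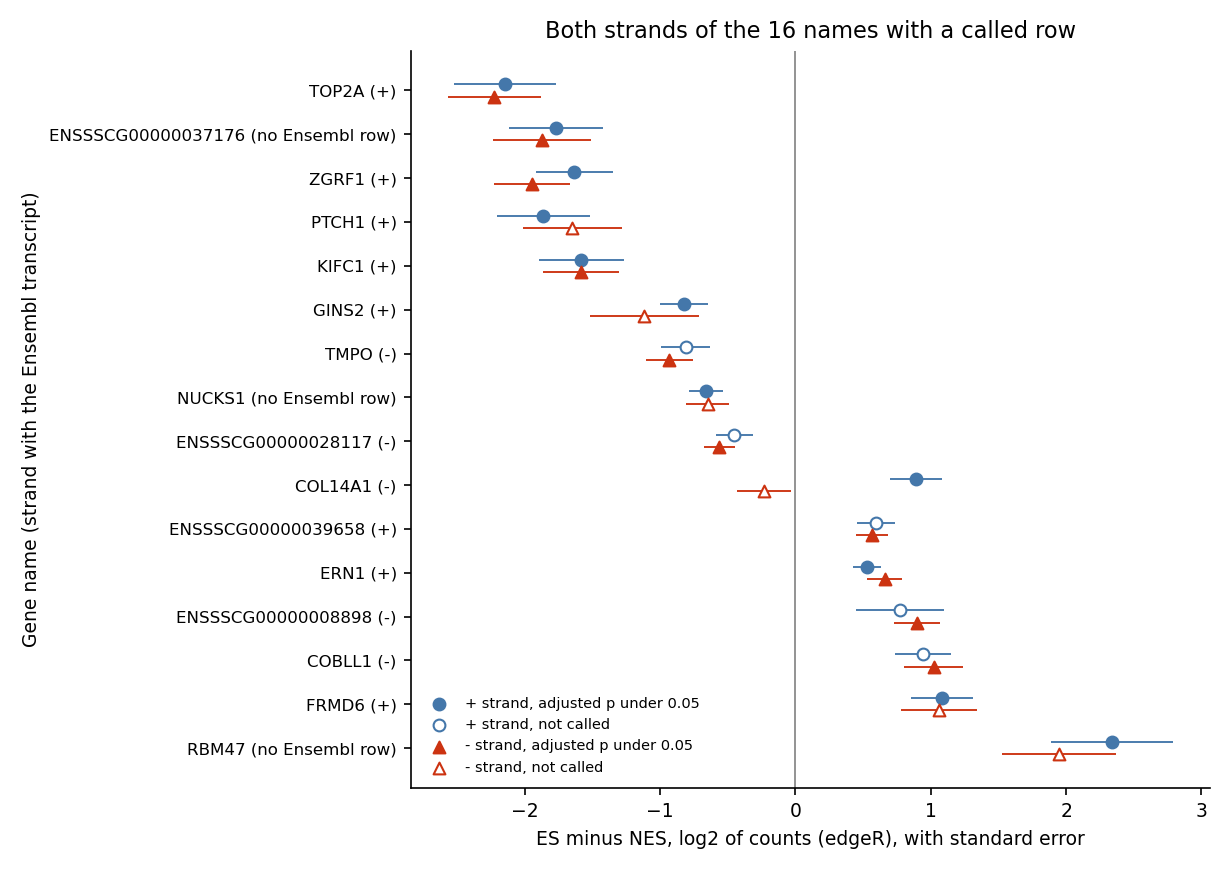
ES minus NES differences (log2 of counts, edgeR, bars show the standard error) on the + and - strand of the 16 names with a called paired locus; filled symbols have an adjusted p below 0.05. TOP2A, with -2.15 and -2.23, lies at the lower end and RBM47 at the upper end, and the strands of COL14A1 lie at 0.89 and -0.23.

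Whether the strands differed in their ES minus NES difference was tested on the log2 ratio of + to - CPM in each library, with limma over all 6035 opposite-strand pairs. None of the 1679 name pairs was called, against 17 of 6035 pairs in the table (0.282%), of which 12 had different names. At an unadjusted p below 0.05 there were 91 same-name pairs (5.42%), against 9.38% of all pairs. The size of the difference had a median of 0.10 (log2) in same-name pairs and 0.18 in pairs with different names, and it was 1 or more in 9 same-name pairs. In TOP2A the ratio of the Ensembl to the opposite strand differed by -0.32 (95% interval -0.69 to 0.05), and in KIFC1 by -0.13 (-0.45 to 0.18). The 0.5 CPM added to each strand shrinks differences of loci with few counts, so a ratio need not equal the gap between the edgeR differences. The opposite locus of TOP2A had 34 to 87 counts in ES. By edgeR its fall was the larger one (-2.23 against -2.15), whereas the ratio had the other sign.

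The smallest adjusted p of the ratio belonged to COL14A1, which encodes a fibril-associated collagen. Its opposite locus (chr4:19007755-19016870, + strand), nearly unbroken at 99.8% of its span, had 1.73, 2.08 and 3.47 FPKM in ES and 0.921, 1.30 and 1.85 in NES. The Ensembl strand had 5.38, 8.26 and 10.3 FPKM in ES and 7.06, 9.47 and 14.5 in NES. On the opposite strand 5 of 6 ES libraries were above all NES libraries, and on the Ensembl strand the groups overlapped. The opposite strand rose by 0.89 ± 0.19 (edgeR adjusted p = 0.0493), whereas the Ensembl strand had -0.23 ± 0.20 (0.603). The ratio of opposite to Ensembl strand differed by 1.08 ± 0.24 (limma adjusted p = 0.0823, exact two-sided permutation p = 0.00216, the smallest that 924 splits allow), which does not pass the adjustment.

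VEGFC, a growth factor for lymphatic vessels, had an opposite locus at its 5′ end that was lower in most ES libraries. This locus, which overlaps the gene by 884 bases, had 0.379, 0.664 and 1.04 FPKM in ES and 1.03, 1.49 and 2.00 in NES, and 5 of 6 ES libraries were below all NES libraries. The gene itself had 2.84, 3.22 and 6.55 FPKM in ES and 2.56, 3.00 and 3.48 in NES. The differences were -1.05 ± 0.27 opposite and 0.45 ± 0.21 on the Ensembl strand (edgeR adjusted p = 0.0881 and 0.317), and the ratio of opposite to Ensembl strand differed by -1.14 ± 0.27 (limma adjusted p = 0.104, exact permutation p = 0.00433). With 29 to 78 opposite counts in ES, the added 0.5 CPM weighs on this ratio, which is less than the gap between the edgeR differences.

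Several large ratio differences came with libraries that stood apart. The ratio of + to - differed most in RF00004, by -2.34 ± 1.04 (limma adjusted p = 0.514, exact permutation p = 0.0866). It differed by 1.12 ± 0.97 in NCOA2, by 1.32 ± 0.90 in FBXL17 and by -1.01 ± 1.16 in NFAT5, the names with libraries at 0, and in NFAT5 it turned to 0.20 without ES1. SUPT3H, a subunit of a histone acetylation complex, had 15.0 FPKM on its Ensembl strand in ES4 and 0.527 to 2.27 in the other libraries. Its ratio differed by -1.64 ± 0.62 (limma adjusted p = 0.391, exact permutation p = 0.0173), with log2 ratios of -3.70 in ES4, -2.23 in ES3 and -0.53 to 1.08 elsewhere. CDK19, a kinase of the Mediator complex, differed by 1.09 ± 0.56. None of these passed the limma adjustment, whose p-values lay between 0.391 and 0.845.

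Within 1 name the answer could depend on which opposite locus was read. The TMPO locus on the - strand faces a second + locus (chr5:85300557-85320580) besides the paired one. That second locus had 1.37 ± 0.463 FPKM in ES and 1.49 ± 0.343 in NES (SD, 6 libraries each), while the gene had 3.50 ± 0.519 and 7.12 ± 2.10. The ratio of the second locus to the gene was higher in ES by 0.88 ± 0.16 (limma adjusted p = 0.0460, exact permutation p = 0.00216). It was the only pair of same-name loci, out of 2699, whose ratio was called, and it was named after its value was seen. The paired + locus (chr5:85310313-85330172) moved with the gene, with a ratio difference of 0.11 (95% interval -0.19 to 0.41).

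**Figure D4:**
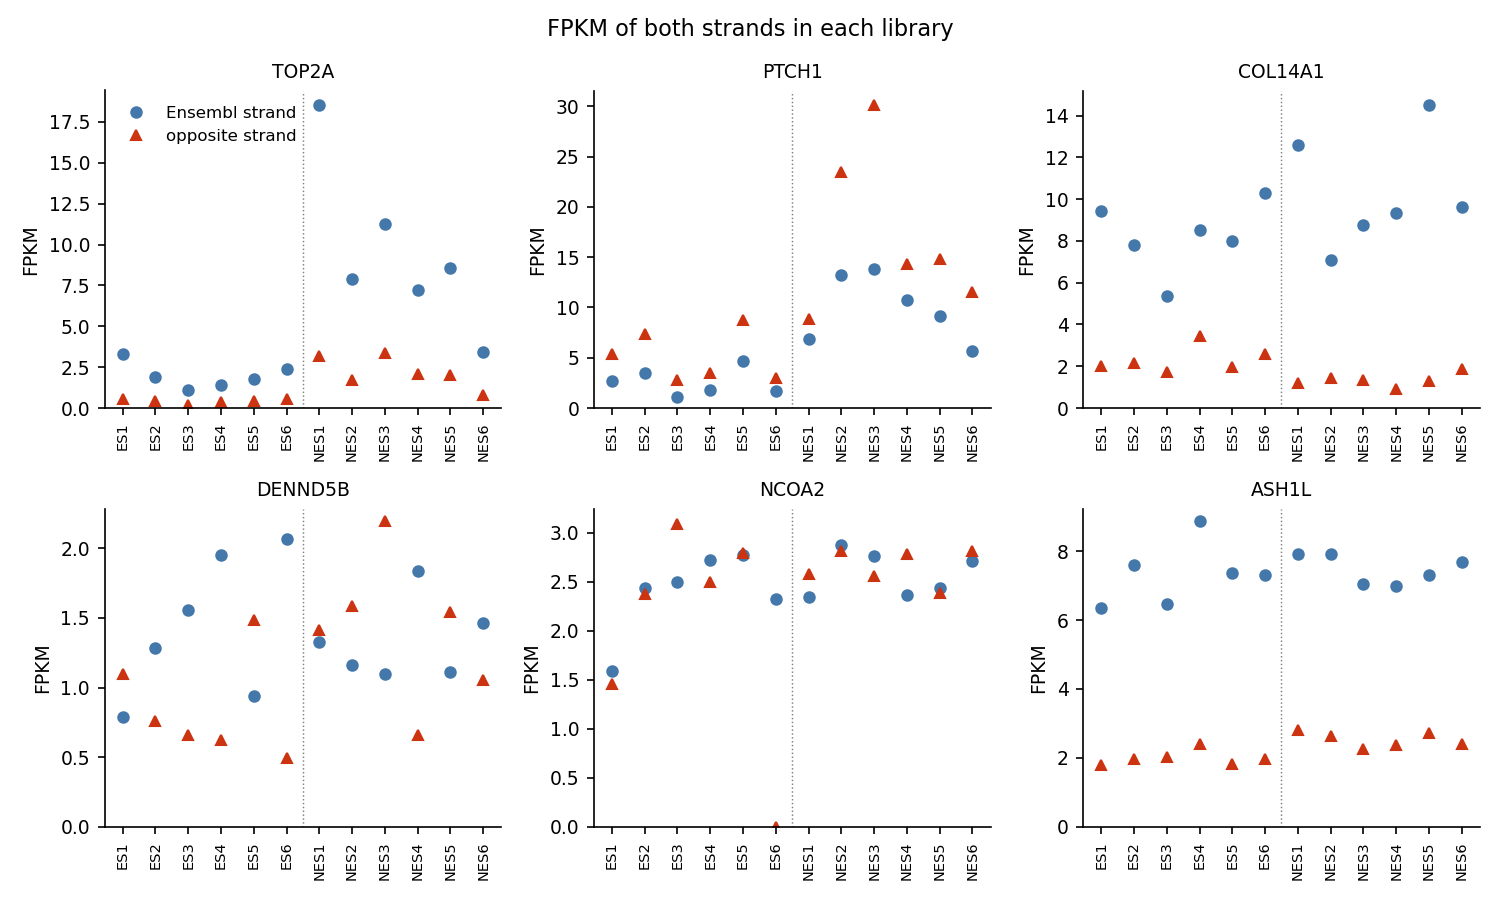
FPKM of the Ensembl strand (circles) and the opposite strand (triangles) in each of the 12 libraries, ES to the left and NES to the right of the dotted line, for 6 names, each panel with its own axis from 0. Both strands are lower in ES in TOP2A and PTCH1, the opposite strand alone is higher in ES in COL14A1, the strands mirror each other in DENND5B, and the opposite strand of NCOA2 is at 0 in ES6.

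The genes in the title of the series both had a pair. SHOC2, a scaffold of Ras signaling, had 2.61 FPKM on its Ensembl strand and 2.12 FPKM on an opposite locus inside the gene (chr14:121356295-121360106, - strand), with r of 0.78 (rho 0.80, permutation p = 0.00279, adjusted p = 0.0123, 0.93 within ES, 0.58 within NES and 0.73 without the 2 farthest libraries). Neither strand was called, with differences of 0.13 ± 0.12 and 0.06 ± 0.16 (edgeR adjusted p = 0.646 and 0.895), and the sign of the opposite one changed with the test. These loci hold linear annotation and say nothing of the circular RNA named after SHOC2.

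ASH1L, a histone methyltransferase gene, had 7.41 FPKM on its Ensembl strand and 2.27 FPKM opposite. The opposite locus (chr4:94314998-94327072, - strand) had 1.78, 1.96 and 2.41 FPKM in ES and 2.26, 2.52 and 2.82 in NES, and 5 of 6 ES libraries were below all NES libraries. The Ensembl strand had 6.36, 7.35 and 8.88 FPKM in ES and 6.98, 7.49 and 7.92 in NES, where the groups overlapped. The opposite strand differed by -0.25 ± 0.13 and the Ensembl strand by 0.06 ± 0.09 (edgeR adjusted p = 0.340 and 0.765), the latter with a sign that turned under limma on FPKM. The ratio of Ensembl to opposite strand differed by 0.28 (95% interval 0.09 to 0.47, limma adjusted p = 0.240, exact permutation p = 0.00433).

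Of the ovarian gene lists, 5 of 15 measured steroidogenesis genes had a pair (CYP19A1, HSD17B12, NR5A1, NR5A2 and SCARB1), as had 4 of 11 hedgehog genes, 3 of 27 cell cycle genes and 7 of 20 ovarian factors. Of 22 genes with an antisense transcript described in mammals, 4 had a pair (ADAMTS9, FGF2, PINK1 and THRA). Only PTCH1 and TOP2A had a called paired locus among these names. The shares with a pair stand beside 14.2% of all measured names and were not tested. GATA4, a transcription factor of granulosa and theca cells, had more FPKM opposite than on its Ensembl strand, 6.39 against 4.80. Their r was 0.96 (rho 0.91, permutation p = 1e-05, adjusted p = 0.000236), 0.98 within ES, 0.85 within NES and 0.87 without ES3 and ES4. The differences were -0.53 ± 0.21 and -0.34 ± 0.18 (edgeR adjusted p = 0.239 and 0.378).

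Several receptors and enzymes of the lists were far higher in 1 library. PGR, the progesterone receptor gene, had 64.7 FPKM on its Ensembl strand and 14.4 opposite in ES1, and at most 11.9 and 1.56 in the other libraries. ES1 also had the highest summed granulosa and luteal markers, 1268 and 361 FPKM. BMPR1B, a receptor of bone morphogenetic proteins, had 24.9 FPKM on its Ensembl strand in ES1 but 3.36 opposite, where ES4 was highest with 4.30. CYP19A1, the aromatase gene, had 40.7 FPKM on its Ensembl strand in ES6 and 6.62 opposite, both the highest of 12. None of these loci was called, and the part of follicle or luteal cell numbers was not tested.

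The balance of the strands did not differ between the groups beyond the spread between libraries. Opposite loci held 19.8 to 22.7% of the counts of all 1595 pairs in ES (mean 20.7 ± 1.02, SD) and 20.1 to 22.3% in NES (21.0 ± 0.811) (exact two-sided permutation p = 0.584). The median opposite share of a pair's FPKM was 33.5 to 37.1% in ES and 32.6 to 37.0% in NES (exact permutation p = 0.526). Over libraries, the coefficient of variation was 19.2% in the median on the Ensembl strand and 25.3% on the opposite strand, where counts were lower.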

How the data were processed

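Trizol-extracted total RNA, cleared of ribosomal RNA, went into dUTP libraries that keep the strand, per the labels' protocols. Tools in the submitters' processing notes are HISAT2, TopHat, cutadapt and FastQC, without versions, and the build is Sscrofa11.1. Neither the program that counted reads, nor its handling of strand, nor the gene models are named there. The authors deposited raw counts and FPKM values per locus and library, per the file headers, and all per-sample columns were used.

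The members, lists and named genes were chosen with earlier results of these data known. An Ensembl locus is one whose transcript field lists an Ensembl transcript. The planned orientation by RefSeq was replaced by this, since the RefSeq table used has no strand. Implied length is count over FPKM, scaled on loci without a strand, at 20 counts or more. The 20421 loci at 0.5 FPKM or more in the mean were tested with edgeR 4.0.16 (quasi-likelihood, TMM, R 4.3.3). Strand ratios, log2((CPM + 0.5)/(CPM + 0.5)), were tested with limma 3.58.1 over 6035 pairs. All p-values were adjusted by Benjamini-Hochberg and called under 0.05. Correlations used permutation tests with 100000 resamples, and group differences of 1 pair an exact permutation test. Alternatives used DESeq2 1.42.0, other scalings, filters and pseudocounts, a replicate block and leaving out libraries. The scripts were tested on simulated data. RefSeq overlaps, silent loci and negative pairs were tabulated after the values were seen.

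Named were the 8 names with the smallest p of a called locus, the 4 largest ratio differences in each direction, the 6 highest weaker strands, the 4 most and 4 least equal pairs, the 4 highest and 4 lowest r (each with both loci at 1 FPKM or more, apart from the called ones and the weaker strands), SHOC2, ASH1L and the 8 list members with the smallest p. Other list members were named for their group.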

Additional observations from a re-analysis of the deposited data

Results flagged for a closer look

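Of 96 groups of 6 libraries checked, 14 held a library whose gap to the nearest other exceeded Dixon's 95% critical value. For groups not chosen by their values, chance gives about 1 in 20. Many of these pairs were named for extreme ratios or correlations in the same libraries, so the count cannot be set against that rate. Values are log2 ratios of + to - strand CPM. In ES, TOP2A stood at 4.29 in ES1 (the others 3.50 to 3.79), PTCH1 at 5.28 in ES3 (5.84 to 6.14) and VEGFC at -4.64 in ES3 (-3.54 to -2.87). NCOA2 stood at 8.58 in ES6 (1.79 to 2.22) and NFAT5 at -9.51 in ES1 (-2.90 to -1.58), the libraries in which an opposite locus had 0 counts. CDK19 stood at -0.70 in ES5 (0.77 to 1.46), TXNL1 at -3.93 in ES1 (-2.91 to -2.72) and BMPR1B at -2.35 in ES1 (0.42 to 1.48). In NES, ENSSSCG00000037176 stood at -0.69 in NES6 (-0.57 to -0.51), RF00004 at 1.79 in NES1 (5.43 to 6.37), NFAT5 at -4.57 in NES6 (-2.23 to -1.73) and DPY19L4 at -4.84 in NES1 (0.04 to 0.84). ES2 stood apart from the other ES libraries in both measures of strand balance: opposite loci held 22.7% of the pair counts (the others 19.8 to 20.8%) and a median of 37.1% of a pair's FPKM (33.5 to 34.6%).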

How the results depend on the processing

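The 27 calls between ES and NES depended on the test and on single libraries. DESeq2 called 174 loci, limma on log2(FPKM + 0.5) 41 and edgeR with no filter on low values 2, while other size factors gave 28, limma on log2(FPKM + 1) 40 and a mean FPKM of 1 or more 25. Leaving out 1 library gave 0 to 52 calls: 13 without ES3, 11 without ES5, 35 without ES1, 52 without NES6 and 0 without each of the rest. Without ES3 and ES6 together, a setting chosen after seeing the data, there were 0 (637 at an unadjusted p below 0.05). The median r was 0.54 by Spearman's rho and 0.57 without ES3 and ES6, and 0.57 to 0.66 with 1 library left out. The median weaker-strand share was 10.4% of counts in place of 34.2% of FPKM, and 33.9 to 34.3% with 1 library left out. Same-name ratio calls stayed at 0 except for 1 without NES6 (0 to 1 with 1 library left out). The number of names was 1527 to 2081 under other filters and overlaps. With no litter label to check against, the values could not settle whether the replicate numbers match sisters. Same-numbered libraries had correlations of -0.0698 to 0.289 in their deviations, and 2 of 6 correlated best with their own number. With the replicate block 0 loci were called by edgeR (536 at an unadjusted p below 0.05) and 0 ratios. Of the values of named loci and pairs over the alternatives, 619 kept their direction and side of the threshold, 134 lost the call, 14 gained it and 9 changed sign. The 9 were SHOC2 on - (-0.026 and -0.021 by limma on FPKM with pseudocounts of 0.5 and 1, -0.0010 without ES3 and -0.00034 without NES2, and -0.0010 to 0.16 over all libraries left out in turn), ASH1L on + (-0.032 and -0.030 by the same limma fits), ADAMTS9 on - (-0.016 and -0.0067) and the NFAT5 ratio (0.20 without ES1, -1.44 to 0.20 over all libraries left out in turn). Depth limits the opposite loci, with a median of 539 counts per library, more than the Ensembl loci.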
